A study of Mus musculus with 8 samples.

Results

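Transcripts of the enzymes that carry glucose through glycolysis, the pentose phosphate branch, pyruvate entry and the tricarboxylic acid (TCA) cycle were examined in mouse CD8 T cells that overexpress CD103. The set was a list of 43 gene symbols, and all 43 had a row among the 13245 genes of the deposited table. They were 17 genes of glycolysis, 8 of pyruvate entry, 12 of the TCA cycle and 6 of the pentose phosphate pathway. The CD8 T cells had a memory phenotype (Ly6C+CXCR3+) and came from lymph node, with 4 libraries of genotype B6 (wild-type C57BL/6) and 4 of genotype CD103Tg. Itgae encodes CD103, the alpha E integrin chain, which the CD103Tg mice overexpress. The labels do not give the promoter of the transgene, the age of the mice, or whether a library came from 1 animal or several, so a p-value here reflects library-to-library spread, which may be technical.

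Glycolysis splits glucose into pyruvate in the cytosol and yields ATP and NADH, and lactate dehydrogenase turns pyruvate into lactate to recover NAD+. The pentose phosphate pathway leaves glycolysis at glucose 6-phosphate, and its oxidative arm makes NADPH while its other arm exchanges sugars with glycolysis. Pyruvate that enters mitochondria is turned into acetyl-CoA by the pyruvate dehydrogenase complex, which pyruvate dehydrogenase kinases switch off, and the TCA cycle then oxidises it. Activated T cells raise glucose uptake and lactate output, whereas resting memory CD8 T cells are known for a greater reliance on mitochondrial oxidation.

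Values are CPM, read counts scaled to a library size adjusted by the trimmed mean of M values method (TMM). The 8 libraries held 50187279 to 56371476 estimated reads over the listed genes. The 11503 genes whose mean reached 1 CPM were compared on log2(CPM + 1) with limma, and a gene was called at a Benjamini-Hochberg adjusted p under 0.05. Itgae was at 37.5 to 174 CPM in B6 and 3469 to 5509 CPM in CD103Tg, and Cd247, the CD3 zeta chain gene, was at 285 to 478 and 7877 to 10164 CPM. Of the 10 CD8 T cell genes listed, 0 were called higher and 3 lower: Cd8a (-0.24), Trac (-0.64) and Cd5 (-0.76). The defining genes Cd3e, Cd8a and Cd8b1 were present in all libraries, at 814 to 959, 1150.4 to 1228 and 1788 to 2098 CPM in B6 and at 791 to 889, 944 to 1044 and 1544 to 1861 CPM in CD103Tg. The 20 cell cycle genes listed all rose in CD103Tg, beside 17.4% of all tested genes, with a median log2 fold change of 1.82. Among them, Rrm2, a subunit of ribonucleotide reductase, went from 22.8 ± 4.22 to 109.6 ± 24.5 CPM and Tk1, thymidine kinase, from 4.29 ± 0.605 to 18.2 ± 3.08 CPM (mean ± SD, n = 4 each).

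Markers of other cells also moved, and with sorted cells in bulk, fewer cells of a type cannot be told apart from less RNA per cell. The summed level of the dendritic cell and class II list, 8 of 9 genes with a row, was 17.4 to 28.3 CPM in B6 and 63.7 to 91.2 CPM in CD103Tg, and 6 of 7 tested rose. The NK list (4 of 5) summed to 158 to 187 and 313 to 388 CPM, and 3 of 3 tested rose. The 3 were Eomes, Klrb1c and Klra8, with log2 fold changes of 0.79 to 1.07. Most of the summed level was Eomes (means of 164 and 345 CPM), which memory CD8 T cells also express. Ncr1, an NK-specific gene, was at means of 0.506 and 0.401 CPM, under the filter and not tested. The plasma cell list (3 of 5) summed to 0.341 to 2.75 and 9.18 to 112 CPM, and 2 of 2 rose. The gamma-delta list (4 of 5) summed to 74.3 to 106 and 106 to 137 CPM, and 2 of 4 rose. The myeloid list (5 of 7) was at 4.65 to 66.2 and 14.5 to 94.2 CPM, with 1 of 4 higher, and the erythroid list (5 of 6) at 1.5 to 56.0 and 0.707 to 185 CPM, with none called. The B cell list (7 of 8) was at 829 to 919 and 347 to 548 CPM, with 2 of 5 higher and 2 lower. None of the marker genes with a row was at 0 in every library.

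Libraries also differed in sex-linked genes, and the labels give no sex. B6 replicate 3 had Xist at 72.0 CPM and Ddx3y at 0.00 CPM, while the other B6 libraries had Ddx3y at 114 to 139 CPM. In CD103Tg replicates 1, 3 and 4 both Xist (21.7 to 45.2 CPM) and Ddx3y (20.8 to 48.5 CPM) were present. The part of cell cycle genes, other cells and sex in the differences below was not tested, except that a fit with the Y-linked level as a covariate also called 9 enzymes higher and 5 lower.

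Of the 43 enzymes, 42 passed the filter, and Aldoc did not. CD103Tg cells had higher transcripts of 9 (Hk1, Pfkp, Pgam1, Eno1, Mpc2, Idh3a, Pgd, Pgls and Tkt) and lower transcripts of 5 (Aldoa, Ldhb, Pdk1, Pdha1 and Idh2), while 28 were not called. The 14 calls were 33.3% of the 42, close to the 31.2% of all tested genes that were called (17.4% higher and 13.8% lower). On the log2(CPM + 1) scale, which shrinks the change of low genes, no called enzyme passed 2-fold, whereas 15.9% of all called genes did. By its mean CPM the rare Ldhb did, from 3.79 to 1.69. The median absolute log2 fold change of the called enzymes was 0.28 against 0.43 for all called genes. The median log2 fold change of the 42 was 0.04, against -0.01 for all tested genes. The groups did not overlap for 12 enzymes that were higher in CD103Tg and 7 that were lower, beside 31.0% of all tested genes. The median level was 158 CPM for the enzymes and 33.9 CPM for all tested genes. The plot of log2 fold changes by pathway shows both directions in every group, while the 3 calls of the pentose phosphate group were all higher.

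**Figure D1:**
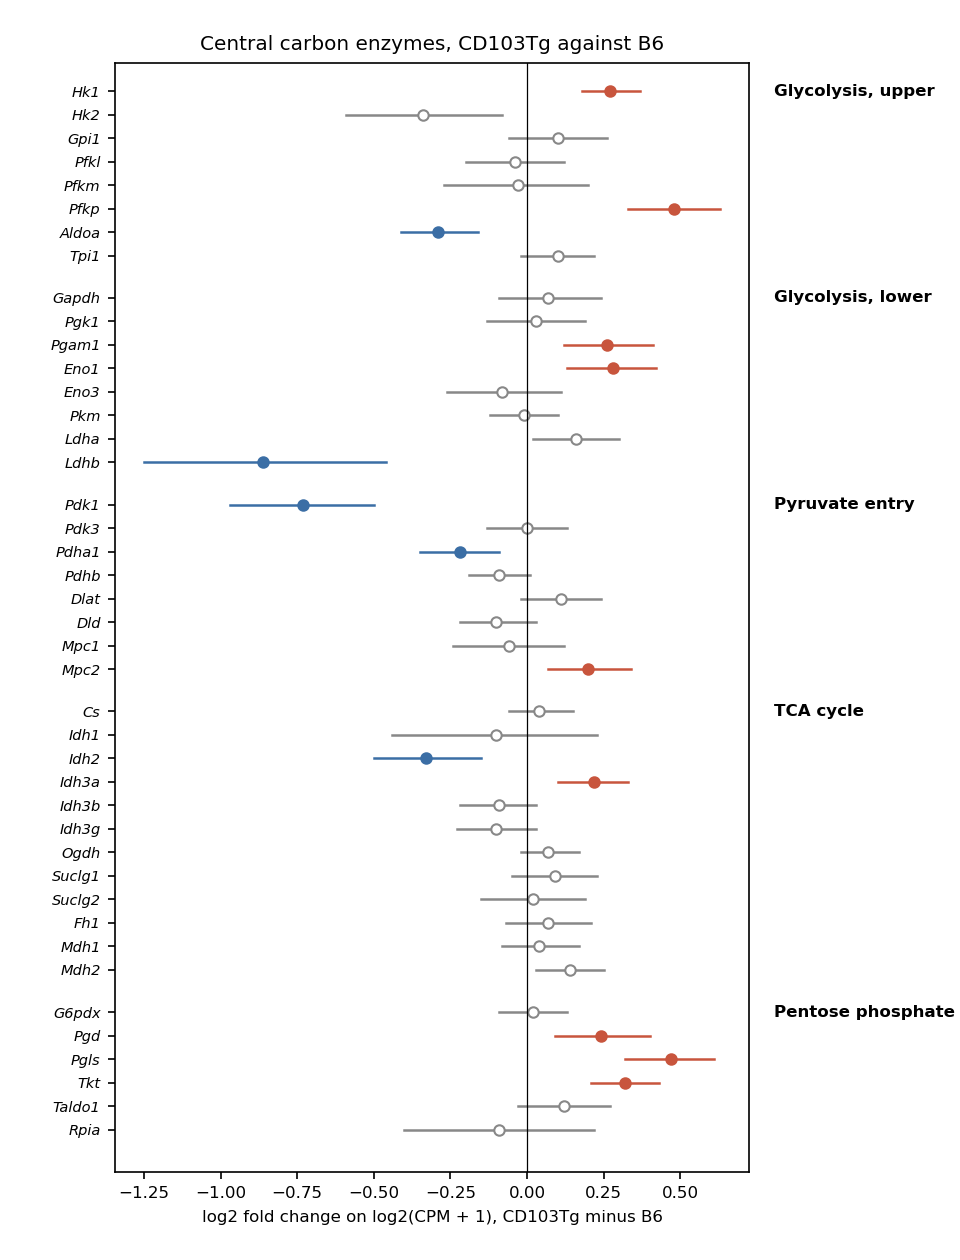
Log2 fold change of the 42 tested enzymes on the log2(CPM + 1) scale (horizontal axis, CD103Tg minus B6) with the 95% confidence interval from limma. Filled red points were called higher, filled blue points lower and open grey points were not called. Pfkp (0.48) and Pgls (0.47) lie farthest to the right, and Ldhb (-0.86) and Pdk1 (-0.73) farthest to the left.

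Glucose is trapped in the cell by hexokinase. Hk1, the housekeeping form that binds mitochondria (GRCm38 chromosome 10, 62268855 to 62379908), stood at 213, 222, 211 and 212 CPM in B6 and at 255, 264, 265 and 255 CPM in CD103Tg. The groups did not overlap, and replicates lay close together. Hk1 rose by 0.27 ± 0.04 on the log2 scale (SE, limma adjusted p = 0.000712), a 1.21-fold change. Hk2, the form that T cells induce on activation, was rare at 4.10, 3.63, 3.18 and 3.67 CPM in B6 and 2.99, 2.27, 2.66 and 2.81 CPM in CD103Tg. All 4 CD103Tg libraries were below all 4 B6 libraries, but the difference of -0.34 ± 0.12 just missed the threshold (limma adjusted p = 0.0505, with 0.0246 to 0.136 under other settings). Per kilobase of merged exon, Hk1 was at 25.1 CPM in B6 against 0.61 for Hk2.

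Phosphofructokinase commits sugar to glycolysis, and of its 3 forms only Pfkp was called. Pfkp, the platelet form (chromosome 13, 6579768 to 6648777), was at 371, 402, 371 and 434 CPM in B6 and at 579.7, 573, 545 and 503 CPM in CD103Tg. Every CD103Tg library was above every B6 library, and the 1.39-fold rise (0.48 ± 0.07, limma adjusted p = 0.000289) was the largest increase among the enzymes. Pfkp exons overlap 748 bases of Pitrm1 on the opposite strand, and without strand information in the libraries the reads of that stretch cannot be assigned. Pitrm1 went the other way, from a mean of 137 to 102.8 CPM (log2 fold change -0.41, limma adjusted p = 0.000136). The liver form Pfkl, at 125, 124, 128 and 156 CPM in B6 and 125, 131, 131 and 129 CPM in CD103Tg, overlapped between groups (-0.04 ± 0.07). The muscle form Pfkm stayed between 6.36 and 8.19 CPM in all libraries (-0.03 ± 0.11). Per kilobase of merged exon, the B6 means were 29.4 CPM for Pfkp, 20 for Pfkl and 2.24 for Pfkm, and the CD103Tg means were 41.0, 19.4 and 2.18.

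Aldolase cleaves fructose bisphosphate. Aldoa, its main form here (chromosome 7, 126795234 to 126800751), was at 642, 633, 672 and 629 CPM in B6 and at 562, 559, 502 and 493 CPM in CD103Tg. It was the upper glycolytic enzyme that fell, by 0.29 ± 0.06 (limma adjusted p = 0.00365), with no overlap between groups. Aldoc, the brain form, was under the filter at 0.50 to 1.05 CPM. The neighbouring steps did not pass. Gpi1, which interconverts the hexose phosphates, was at 203 to 257 CPM in B6 and 237 to 266 in CD103Tg (0.10 ± 0.07), and Tpi1, which interconverts the triose phosphates, was at 100.3 to 108 and 105 to 119 CPM (0.10 ± 0.06).

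In lower glycolysis, where ATP is made, the consecutive enzymes phosphoglycerate mutase and enolase rose together. Pgam1 (chromosome 19, 41911923 to 41918660) was at 214, 206, 227 and 192 CPM in B6 and at 275, 255, 242 and 235 CPM in CD103Tg, a rise of 0.26 ± 0.07 (limma adjusted p = 0.0111). Eno1, one of the most abundant of the enzymes (chromosome 4, 150236721 to 150248879), was at 1486, 1446, 1526 and 1549 CPM in B6 and at 1818, 1961, 1855 and 1657 CPM in CD103Tg. Neither gene overlapped between groups, and Eno1 rose by 0.28 ± 0.07 (limma adjusted p = 0.00802). Both have near-identical processed copies in the genome, so the division of reads is uncertain, although the copies with a row held at most 1.21% of the Pgam1 level and 2.03% of the Eno1 level. One of these, Eno1b, rose as well, from 22.6 ± 0.832 to 29.9 ± 4.07 CPM (mean ± SD, n = 4 each, limma adjusted p = 0.0106). Eno3, the muscle enolase, was at 17.3, 20.4, 17.5 and 19.4 CPM in B6 and 17.3, 19.4, 17.7 and 16.1 CPM in CD103Tg and overlapped (-0.08 ± 0.09).

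The enzymes around this pair did not pass. Gapdh was at 531 to 649 CPM in B6 and 571 to 651 in CD103Tg (95% confidence interval of the log2 difference -0.09 to 0.24), and Pgk1 at 147 to 182 and 165 to 188 CPM (-0.13 to 0.19). Pkm, the pyruvate kinase of T cells, was at 719 to 763 and 728 to 760.4 CPM (-0.12 to 0.10). Intervals that hold 0 do not show that levels were equal. Gapdh has 78 near-identical copies among the annotated transcripts, the most of any of the enzymes, and the 5 copies with a row together held at most 2.11% of its level.

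Of the lactate dehydrogenase subunits, Ldhb was called lower and Ldha was not called. Ldha, the subunit that favours lactate formation, was at 1274, 1247, 1283 and 1112 CPM in B6 and at 1418, 1423, 1323 and 1331 CPM in CD103Tg. All CD103Tg libraries were higher, but the difference of 0.16 ± 0.06 did not pass (limma adjusted p = 0.078, and 0.0182 with quantile normalization). Ldhb, the heart subunit (chromosome 6, 142490249 to 142507957), was rare, at 4.61, 3.10, 3.66 and 3.79 CPM in B6 and 1.08, 2.05, 1.19 and 2.43 CPM in CD103Tg. Its fall of 0.86 ± 0.18 (limma adjusted p = 0.00415) rests on 53 to 252 estimated reads per library. Its size depends on the treatment of low values, at -0.40 with a pseudocount of 5, -1.19 with a pseudocount of 0.1 and -1.24 by voom on estimated reads, and it was called in each. Per kilobase of merged exon, Ldha was at 371 CPM in B6 and 415 in CD103Tg, against 2.41 and 1.07 for Ldhb.

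At pyruvate entry, 1 of 8 genes rose and 2 fell (37.5%, beside 31.2% of all tested genes). Pdk1, a kinase that inhibits pyruvate dehydrogenase and is a known target of hypoxia-inducible factor (chromosome 2, 71873224 to 71903858), was at 364, 262, 276 and 294 CPM in B6 and at 187, 149, 199 and 181 CPM in CD103Tg. The highest CD103Tg library was below the lowest B6 library. Pdk1 fell by 0.73 ± 0.11 (limma adjusted p = 0.000407), to 0.60 of the B6 level, and the value was -0.79 to -0.64 under other settings. The related kinase Pdk3, at 53.0, 56.2, 53.8 and 48.5 CPM in B6 and 52.5, 53.2, 51.8 and 54.0 CPM in CD103Tg, did not differ beyond its spread (0.00 ± 0.06).

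Among the subunits of the complex, Pdha1, the catalytic E1 alpha subunit that these kinases phosphorylate (chromosome X, 160122209 to 160138413), was at 231, 212, 206 and 194 CPM in B6 and at 186, 183, 180.1 and 173 CPM in CD103Tg. Pdha1 fell by 0.22 ± 0.06 (limma adjusted p = 0.0155), and it was the only one called of the 5 X-linked enzymes, the others being Pgk1, Pdk3, Idh3g and G6pdx. With the Y-linked level as a covariate it was still called. Its E1 beta partner Pdhb was at 183 to 199 CPM in B6 and 173 to 182 in CD103Tg, which did not overlap but did not pass (-0.09 ± 0.05, limma adjusted p = 0.172). The E2 subunit Dlat was at 68.8 to 75.89 and 75.93 to 85.4 CPM, without overlap (0.11 ± 0.06), and the E3 subunit Dld at 101 to 117 and 100.2 to 105 CPM (-0.10 ± 0.06).

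The mitochondrial pyruvate carrier is a pair of Mpc1 and Mpc2. Mpc2 (chromosome 1, 165460637 to 165481214) was at 43.1, 41.5, 47.9 and 41.9 CPM in B6 and at 51.6, 50.4, 49.8 and 49.4 CPM in CD103Tg. It rose by 0.20 ± 0.06 (limma adjusted p = 0.0251), but the call was lost without any one of B6 replicates 1, 2 and 4 or CD103Tg replicates 1 to 3 and without both libraries numbered 4 (adjusted p = 0.0531 to 0.0699 over these fits). Mpc1 overlapped, at 66.6 to 89.1 CPM in B6 and 70.1 to 73.9 in CD103Tg (-0.06 ± 0.08).

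The gene of hypoxia-inducible factor 1 alpha, Hif1a, fell from 178, 183, 156 and 147 CPM in B6 to 113, 116, 114 and 144 CPM in CD103Tg (-0.45 ± 0.09, limma adjusted p = 0.00364). A link between this fall and that of Pdk1 was not tested. The core letters of the element that this factor binds, ACGTG on either strand, were searched in the 250 bases before the RefSeq start (assembly GRCm38.p6) of 42 of the 43 enzymes. They were present in 10 of 42 promoters (23.8%), against 16.6% of 27025 promoters of the same length. Of the 8 called higher with a promoter, Pgam1 alone held them, and of the 5 called lower none did. The promoters of Ldha, which holds the letters most often, of Pgam1 and of Pdk1 are shown 5′ to 3′ with ACGTG or its complement in capitals, as examples of an enzyme not called, one called higher with the letters and one called lower without them. The letters CACGTG, the E-box that Myc binds, contain ACGTG on both strands and occur at 2 places in the Ldha promoter. They were in 2 of 42 promoters (4.76%), against 6.05% of 27025, and the 2 were those of Ldha and Pfkm, neither of them called.
Ldha, chr7:46845554-46845803, plus strand: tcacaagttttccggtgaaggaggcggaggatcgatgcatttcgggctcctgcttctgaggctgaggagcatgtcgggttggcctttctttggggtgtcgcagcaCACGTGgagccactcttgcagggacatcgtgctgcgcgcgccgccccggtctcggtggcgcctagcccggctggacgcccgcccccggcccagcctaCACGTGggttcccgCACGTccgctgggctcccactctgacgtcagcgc
Pgam1, chr19:41911621-41911870, plus strand: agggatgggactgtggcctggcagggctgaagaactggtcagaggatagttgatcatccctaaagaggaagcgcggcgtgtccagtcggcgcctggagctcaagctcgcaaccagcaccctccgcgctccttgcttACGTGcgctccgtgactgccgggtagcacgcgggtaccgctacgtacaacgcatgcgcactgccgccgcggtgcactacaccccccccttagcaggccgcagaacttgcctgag
Pdk1, chr2:71872974-71873223, plus strand: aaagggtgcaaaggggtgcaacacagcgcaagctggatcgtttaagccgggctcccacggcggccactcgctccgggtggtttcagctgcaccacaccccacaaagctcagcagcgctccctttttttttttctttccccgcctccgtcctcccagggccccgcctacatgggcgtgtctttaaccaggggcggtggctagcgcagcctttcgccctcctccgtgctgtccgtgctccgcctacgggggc
A match is a description of letters and not of binding, and sites outside this window were not searched.

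**Figure D2:**
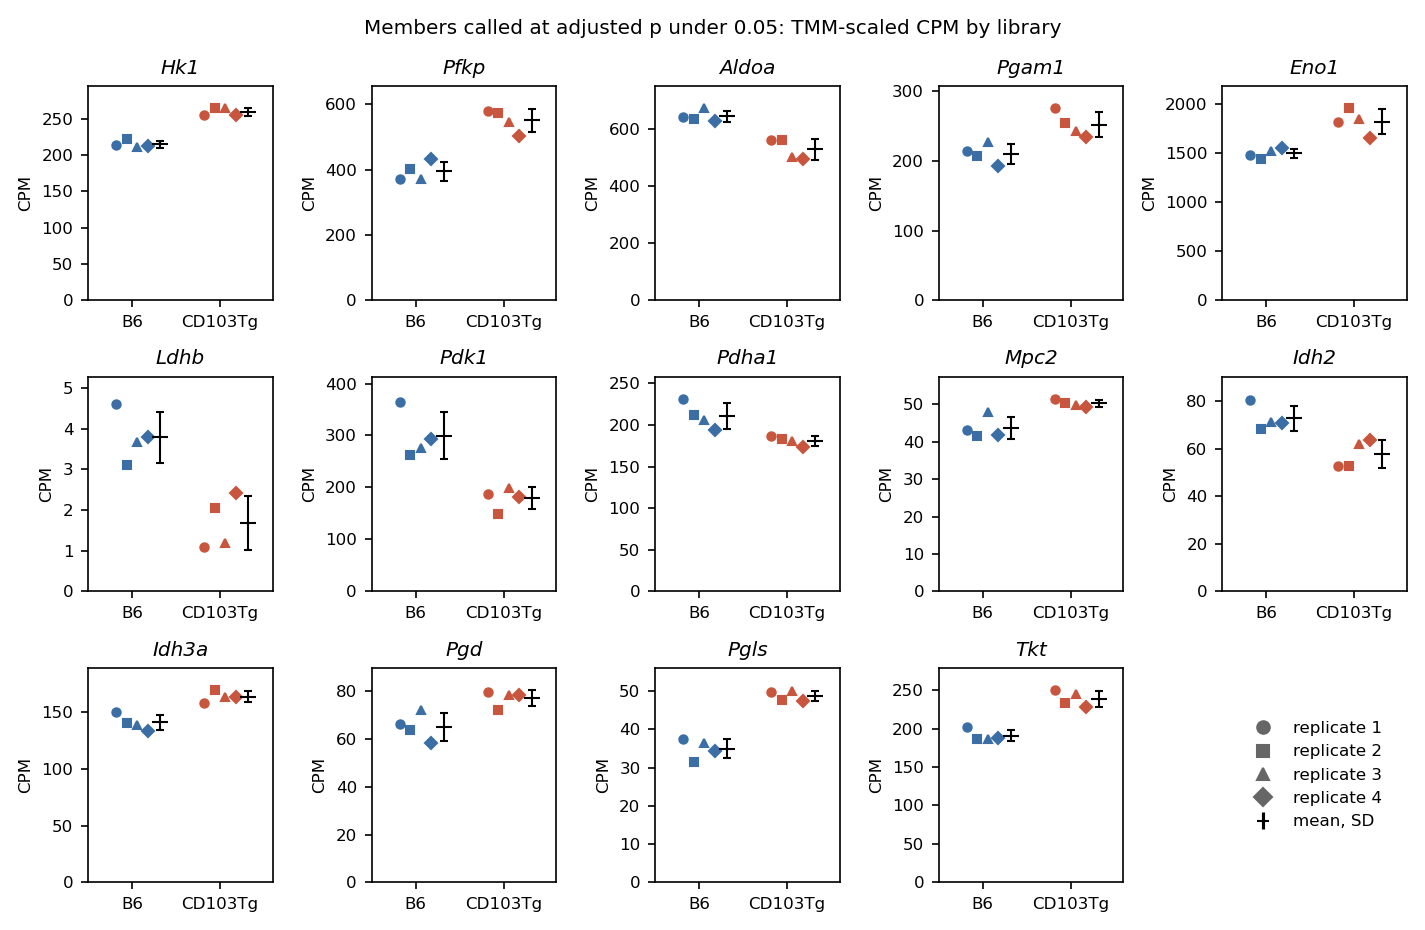
TMM-scaled CPM (vertical axes, from 0) of the 14 called enzymes in each library, with a marker for each replicate number and the group mean and SD in black. The 2 groups do not overlap in any panel, and the Pdk1 and Ldhb panels show the lowest CD103Tg means relative to B6.

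Of 12 TCA cycle genes, 1 rose, 1 fell and 10 did not pass (16.7% called, beside 31.2% of all tested genes). The called genes, Idh3a and Idh2, encode isocitrate dehydrogenases and went in opposite directions, while Idh1, Idh3b and Idh3g were not called. Idh3a, the catalytic subunit of the NAD-dependent enzyme (chromosome 9, 54586334 to 54604661), was at 150.3, 141, 139 and 134 CPM in B6 and at 158, 169.8, 163 and 164 CPM in CD103Tg, a rise of 0.22 ± 0.05 (limma adjusted p = 0.00818). Its partner subunits leaned the other way without passing, Idh3b at -0.09 ± 0.06 and Idh3g at -0.10 ± 0.06. Idh2, the mitochondrial NADP-dependent enzyme (chromosome 7, 80094846 to 80115392), was at 80.5, 68.3, 71.2 and 70.7 CPM in B6 and at 52.7, 52.7, 62.1 and 63.7 CPM in CD103Tg. Idh2 fell by 0.33 ± 0.08 (limma adjusted p = 0.00913), with no overlap between groups. Its cytosolic counterpart Idh1 was rare and overlapped, at 4.76, 5.21, 4.28 and 4.52 CPM in B6 and 3.52, 5.69, 3.29 and 5.04 CPM in CD103Tg.

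Cs, citrate synthase, which admits acetyl-CoA to the cycle, was at 249 to 274 CPM in B6 and 263 to 276 in CD103Tg, with a 95% confidence interval of the log2 difference from -0.06 to 0.15. Ogdh, of the oxoglutarate dehydrogenase complex, was tightly measured at 381 to 397 CPM in B6 and 405 to 419 in CD103Tg. The groups did not overlap, but the difference of 0.07 ± 0.04 did not pass. The succinyl-CoA ligase genes Suclg1 (0.09 ± 0.07) and Suclg2 (0.02 ± 0.08) and fumarase, Fh1 (0.07 ± 0.06), were not called. Malate dehydrogenase is present in cytosol as Mdh1, at 309.6 to 348 CPM in B6 and 329 to 367 in CD103Tg (0.04 ± 0.06), and in mitochondria as Mdh2. Mdh2 was at 292, 293, 312 and 291 CPM in B6 and 331, 341, 327 and 308 CPM in CD103Tg, and its difference of 0.14 ± 0.05 came near the threshold (limma adjusted p = 0.0584, with 0.0292 to 0.158 under other settings).

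In contrast to these nuclear genes of mitochondrial enzymes, the 13 protein-coding genes of the mitochondrial genome all fell, beside 13.8% of all tested genes. Their median log2 fold change was -0.79, against 0.04 for the 12 TCA genes. mt-Cytb, of respiratory complex III, went from 2223 ± 129 to 1314 ± 62.7 CPM (mean ± SD, n = 4 each, limma adjusted p = 9.97e-06), and mt-Nd4, of complex I, from 785 ± 93.2 to 446 ± 22.8 CPM (limma adjusted p = 2.7e-05). The 13 genes held 1.85% ± 0.166 of the signal in B6 and 1.06% ± 0.0831 in CD103Tg (mean ± SD, n = 4 each), and the TCA genes held 0.209% to 0.214% and 0.208% to 0.217%. The difference between the 2 lists was not tested.

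In the pentose phosphate branch 3 of 6 genes rose and 0 fell, beside 17.4% of all tested genes higher and 13.8% lower. Whether this small list differed from all tested genes was not tested. Pgls, the lactonase of the oxidative arm (chromosome 8, 71592176 to 71601092), was at 37.4, 31.6, 36.5 and 34.4 CPM in B6 and at 49.7, 47.6, 49.9 and 47.4 CPM in CD103Tg. It rose by 0.47 ± 0.07 (limma adjusted p = 0.000302), nearly as much as Pfkp. Pgls exons overlap 776 bases of Fam129c on the same strand, and the division of reads there is uncertain, but Fam129c was low, at a mean of 3.29 CPM in B6 and 3.56 in CD103Tg. Tkt, the transketolase that links the branch to glycolysis (chromosome 14, 30548359 to 30574720), was at 202, 187, 186 and 188 CPM in B6 and at 250.04, 233, 244 and 227 CPM in CD103Tg. It rose by 0.32 ± 0.05 (limma adjusted p = 0.000638), and its estimated reads were whole numbers in all 8 libraries.

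Pgd, the other NADPH-forming dehydrogenase of the oxidative arm (chromosome 4, 149149991 to 149166771), was at 66.4, 63.8, 72.2 and 58.3 CPM in B6 and at 79.5, 72.4, 78.6 and 78.4 CPM in CD103Tg. The lowest CD103Tg library was just above the highest B6 library. Pgd rose by 0.24 ± 0.07 (limma adjusted p = 0.019), but lost its call without CD103Tg replicate 1 (adjusted p = 0.0514), CD103Tg replicate 3 (0.0523) or both libraries numbered 4 (0.0619). G6pdx, the entry enzyme of the pathway and its main control point, did not change beyond its spread, at 97.0 to 105 CPM in B6 and 99.2 to 107 in CD103Tg (95% confidence interval of the log2 difference -0.09 to 0.13). G6pdx shares 418 exon bases with Ikbkg on the opposite strand, which was about as abundant (means of 108.6 and 104.6 CPM), and its estimated reads were whole numbers in 0 libraries, so the division of reads between them is uncertain. Taldo1, transaldolase, was at 157 to 193 and 182 to 191 CPM (0.12 ± 0.07), and Rpia, which makes ribose 5-phosphate, stayed between 3.75 and 5.98 CPM. The median log2 fold change of the 6 was 0.18.

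As shares of each library's signal, the 17 glycolytic genes held 0.619% to 0.629% in B6 and 0.649% to 0.694% in CD103Tg, and the 6 pentose phosphate genes 0.0562% to 0.0585% and 0.0640% to 0.0667%. Neither overlapped between groups. The 8 genes of pyruvate entry went the other way, from 0.101% to 0.116% in B6 to 0.0862% to 0.0913% in CD103Tg. Such sums follow the most abundant genes, Eno1 and Ldha in glycolysis and Pdk1, Pdha1 and Pdhb in pyruvate entry, and carry no test.

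**Figure D3:**
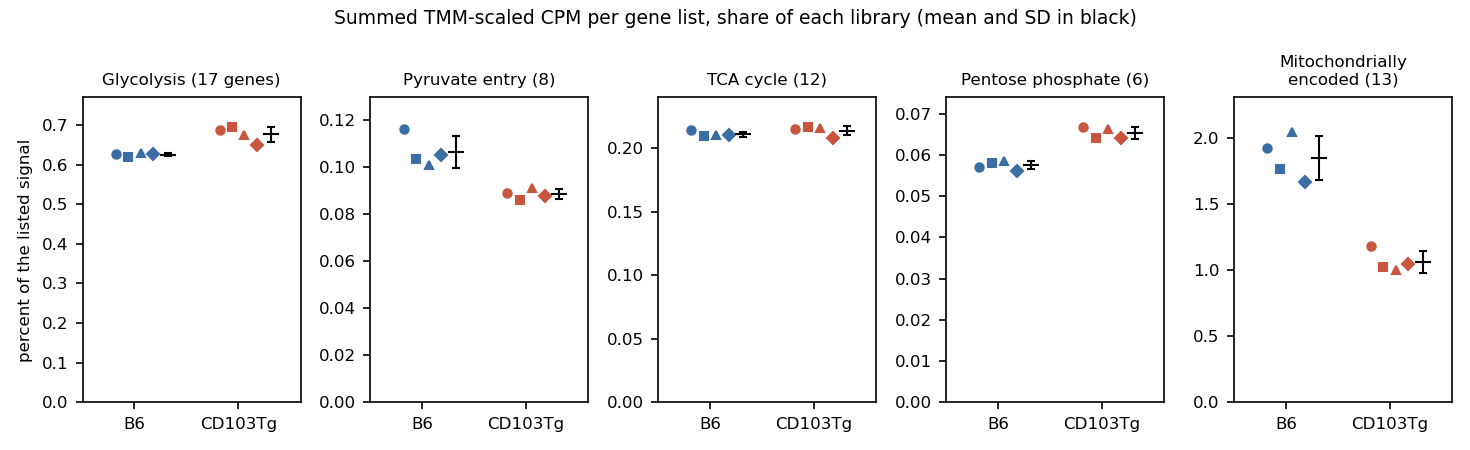
Share of the summed CPM of each library (vertical axes, percent, from 0) taken by the 4 groups of enzymes and by the 13 mitochondrially encoded genes, by replicate, with the group mean and SD in black. The glycolysis and pentose phosphate shares are higher in CD103Tg, the pyruvate entry and mitochondrially encoded shares are lower, and the TCA cycle share overlaps.

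Whether 2 forms of an enzyme changed unequally was tested on the log2 ratio of their values plus 1 in each library, for 9 pairs, with an exact two-sided permutation test over 70 assignments of libraries to groups. In 5 pairs the groups did not overlap and the exact p was 0.0286, the smallest that the design allows, but adjusted over the 9 pairs it was 0.0514, so none passed. The log2 ratio of Pfkp to Pfkl went from 1.56 ± 0.0947 to 2.08 ± 0.107 (mean ± SD, n = 4 each), a difference of 0.52 ± 0.0713 (SE). Ldhb to Ldha went from -8.01 ± 0.203 to -9.03 ± 0.367, and Pdk1 to Pdk3 from 2.47 ± 0.247 to 1.73 ± 0.192. Hk1 to Hk2 differed by 0.61 ± 0.0942 and Eno3 to Eno1 by -0.35 ± 0.0659. The remaining pairs overlapped: Pfkm to Pfkl (0.00 ± 0.157, exact p = 0.971), Aldoc to Aldoa (0.21 ± 0.129, exact p = 0.171), Idh1 to Idh2 (0.23 ± 0.196, exact p = 0.314) and Mdh1 to Mdh2 (-0.09 ± 0.0397, exact p = 0.0857).

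**Figure D4:**
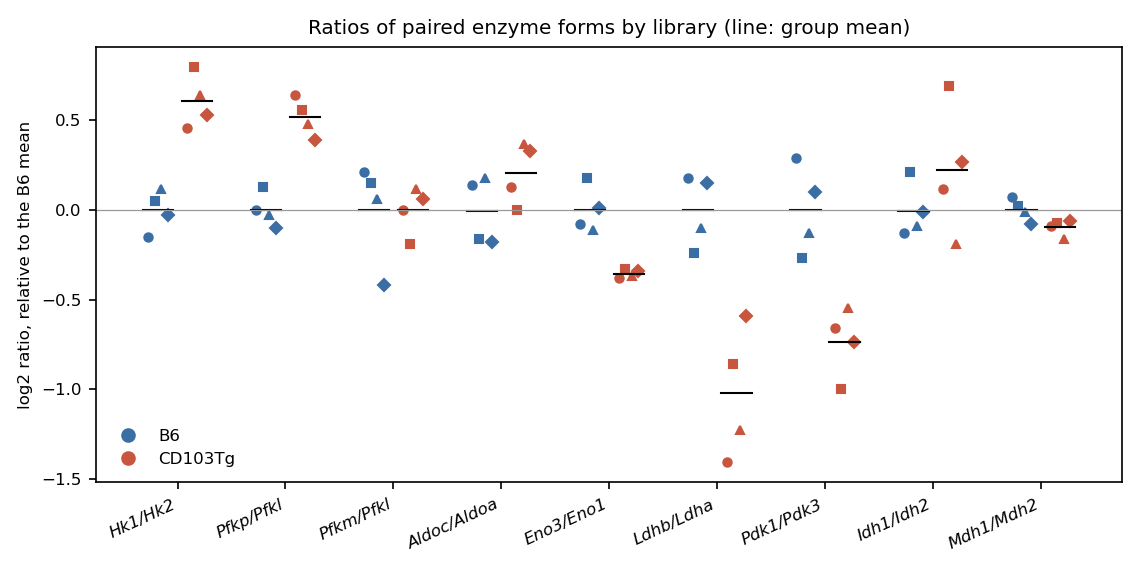
Log2 ratio of the values plus 1 of 2 forms of an enzyme in each library, shown relative to the B6 mean of that pair (vertical axis), with group means as lines and a marker shape for each replicate number. The CD103Tg points lie wholly above the B6 points for Hk1/Hk2 and Pfkp/Pfkl, wholly below them for Eno3/Eno1, Ldhb/Ldha and Pdk1/Pdk3, and overlap them in the other 4 pairs.

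Other genes of these pathways were counted from lists of 79 companion genes, of which 59 were tested. Of these, 11 were higher and 6 lower (28.8%, beside 31.2% of all tested genes). These counts depend on single libraries: 7 were higher without B6 replicate 4 or CD103Tg replicate 1, 3 were lower without B6 replicate 1 or 3, and 2 were lower without CD103Tg replicate 2. Around glycolysis, 8 of 21 rose and 2 fell (47.6%, beside the same 31.2%). The lactate and pyruvate transporter gene Slc16a1 rose from 144 ± 15.7 to 184 ± 11 CPM (mean ± SD, n = 4 each, limma adjusted p = 0.00512), and Bsg, the chaperone of that transporter, from 201 ± 14.3 to 245 ± 17 CPM (limma adjusted p = 0.0073). The glucose transporter genes did not pass: Slc2a1 was at 71.8 to 94.8 CPM in B6 and 81.3 to 101 in CD103Tg, and Slc2a3 at 85.9 to 97.5 and 76.4 to 99.1 CPM. Minpp1, an inositol polyphosphate phosphatase, fell by 0.38 ± 0.07 (limma adjusted p = 0.0025), as did Pfkfb4, named after its value was seen (-0.57, limma adjusted p = 0.0253).

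At pyruvate entry, 0 of 9 rose and 2 fell (22.2%, beside 31.2% of all tested genes), both linked to the phosphatase that reverses the action of Pdk1. Pdp2, a catalytic subunit of that phosphatase, was at 11.1 to 12.5 CPM in B6 and 9.03 to 9.57 in CD103Tg (limma adjusted p = 0.0289). Pdpr, a regulatory subunit of the phosphatase, was at 28.5 to 32.5 and 25.01 to 27.3 CPM (limma adjusted p = 0.0217). The more abundant catalytic subunit gene Pdp1, named after its value was seen, was not called (means of 25.9 and 27.0 CPM, 0.06 ± 0.09). Of 22 further genes around the TCA cycle 3 rose and 0 fell (13.6%). They were the dicarboxylate carrier Slc25a10 (0.41 ± 0.09, limma adjusted p = 0.00464), the succinate dehydrogenase anchor Sdhd (0.23 ± 0.06, limma adjusted p = 0.00952) and the cytosolic aconitase Aco1 (0.27 ± 0.07, limma adjusted p = 0.01). Of 7 further genes in and around the pentose phosphate pathway, 0 rose and 2 fell (28.6%). Both were X-linked synthetases that turn ribose 5-phosphate into the precursor of nucleotides, Prps1 from 109.8 ± 10 to 93.0 ± 5.59 CPM (limma adjusted p = 0.0282) and Prps2 from 157 ± 17.5 to 131 ± 6.05 CPM (limma adjusted p = 0.0273), and the Prps2 groups overlapped.

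Of 25 tested regulators of these pathways, 7 rose and 4 fell (44.0%, beside 31.2% of all tested genes). Keap1, the repressor of the oxidative stress factor NRF2, went from 106 ± 2.61 to 136 ± 3.72 CPM (limma adjusted p = 0.000141), and Nfe2l2, which encodes NRF2, from 84.2 ± 3.44 to 103 ± 3.45 CPM (limma adjusted p = 0.00135). NRF2 is known to raise pentose phosphate enzymes, but a link to the rises here was not tested. The core letters of its element, TGACNNNGC (N is any base), were searched in the same 250 bases. They were in 2 of 42 enzyme promoters (4.76%), against 10.1% of 27025 promoters. Of the 8 called higher 0 held them, and of the 5 called lower 0. Rptor, the scaffold of the growth kinase complex mTORC1, rose by 0.44 ± 0.08 (limma adjusted p = 0.00189), and Egln1, the oxygen sensor that marks HIF-1 alpha for breakdown, by 0.31 ± 0.06 (limma adjusted p = 0.00275). Myc, a known activator of glycolytic genes, was at 235, 277, 229 and 262 CPM in B6 and 304, 326, 322 and 277 CPM in CD103Tg (0.30 ± 0.07, limma adjusted p = 0.0104). Besides Hif1a, the regulators that fell were Arnt, its dimer partner (-0.32), Tsc1 (-0.36) and Trp53 (-0.21), which were named after their values were seen. Of 10 other hypoxia response genes, 1 rose and 2 fell, so 3 of 10 were called, close to the 31.2% of all tested genes. The 3 called were Higd1a (0.41 ± 0.06, limma adjusted p = 0.000312), Ankrd37 (-1.09 ± 0.20, limma adjusted p = 0.00178) and Bnip3l (-0.27, limma adjusted p = 0.00403), the last named after its value was seen.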

How the data were processed

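RNA was amplified with SMART-Seq v4, a low-input cDNA kit with no molecular identifiers and no strand marking, and libraries were made with Nextera XT, per the labels' protocols. Builds GRCm38 and mm10 and the tools RSEM, STAR 2.7.0f, cutadapt 1.18 and bcl2fastq 2.17 are listed per the submitters' processing notes. The table the authors deposited holds a signal per gene, TMM-scaled CPM, after a gene filter; neither its rule nor the annotation is stated in those notes. All 13245 IDs and symbols matched GENCODE M21, from which GRCm38 positions and merged exon lengths were taken. All values were whole multiples of 0.01 of an estimated read within 0.05 of a hundredth, and 63.0% to 65.2% per library were whole reads within 0.005, so 1 read was worth 0.0171 to 0.0203 CPM. Intervals cover the spread between libraries. Replicates differed by 22.0 to 58.8 chi-square per degree of freedom, so none was a copy.

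The fit to the whole table modelled log2(CPM + 1) by genotype alone, using lmFit and trended eBayes (R 4.3.3, limma 3.58.1), with two-sided p adjusted by Benjamini-Hochberg, and was tested on simulated data. Fold changes are on that scale, which understates the change of low genes, and positive values mean higher in CD103Tg. Near-identical copies were transcripts of other genes aligned by BLAST 2.17.0 over at least 200 bases at 95% identity. Python 3.11.15 with scipy 1.17.1 was used for exact tests. Alternatives were other pseudocounts, filters and scalings, robust eBayes, array weights, a replicate block, voom on the estimated reads, a Y-linked covariate and leaving out libraries. The enzymes, companion lists and tests were chosen with earlier results of these data known. The genes named are the 43 enzymes, the 4 called members with the smallest p in each companion and regulator list, Slc2a1, Slc2a3, Hif1a and Myc, 2 each of the mitochondrially encoded, hypoxia response and cell cycle lists, and Itgae and Cd247. Named outside that rule, after their values were seen, are Pfkfb4, Pdp1, Arnt, Tsc1, Trp53, Bnip3l, the partners of overlapping genes, and the markers Cd3e, Cd8a, Cd8b1, Trac, Cd5, Eomes, Klrb1c, Klra8, Ncr1, Xist and Ddx3y.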

Additional observations from a re-analysis of the deposited data

Results flagged for a closer look

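Each enzyme was checked in each group of 4 libraries for a highest or lowest library set apart from the others, by Dixon's test at the 95% level, and 5 of 86 groups held one. Chance flags about 1 in 20 groups, so this number is near that share. Pfkl stood at 156 CPM in B6 replicate 4 against 124 to 128 CPM in the other B6 libraries. Mdh2 was at 312 CPM in B6 replicate 3 against 291 to 293 CPM, and Tkt at 202 CPM in B6 replicate 1 against 186 to 188 CPM. Among the CD103Tg libraries, Pkm was at 760.4 CPM in replicate 2 against 728 to 729.6 CPM, and Pgd at 72.4 CPM in replicate 2 against 78.4 to 79.5 CPM.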

How the results depend on the processing

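Over 21 other fits, 7 to 11 enzymes were called higher and 4 to 6 lower, against 9 and 5. Leaving out 1 library in turn gave 7 to 11 and 5 to 6. Hk1, Pfkp, Aldoa, Pgam1, Eno1, Ldhb, Pdk1, Pdha1, Idh2, Idh3a, Pgls and Tkt kept their call and direction in each fit that tested them (Ldhb is under a minimum mean of 5 CPM), and Mpc2 lost it in 7 and Pgd in 3. Hk2 was called lower in 7 of 20 fits, Mdh2 higher in 4, and Ldha and Taldo1 higher in 1 each. Companion genes were called higher in 7 to 13 and lower in 2 to 6 when 1 library was left out. The fewest higher, 7, came without B6 replicate 4 or CD103Tg replicate 1, and the fewest lower, 2, without CD103Tg replicate 2, with 3 without B6 replicate 1 or 3. Quantile normalization called 1741 of all genes higher and 1995 lower, and equal totals 1759 and 1850, against 2000 and 1592. With a pseudocount of 5, 6 ratios passed at an adjusted p of 0.0429: Hk1/Hk2 (0.44), Pfkp/Pfkl (0.51), Aldoc/Aldoa (0.26), Eno3/Eno1 (-0.34), Ldhb/Ldha (-0.56) and Pdk1/Pdk3 (-0.72). The exact permutation p cannot go below 0.0286, and the adjusted p fell because Aldoc/Aldoa reached that floor as well. Aldoc, Hk2 and Ldhb were under 5 CPM in every library, so adding 5 damps their part in these ratios. The Aldoc/Aldoa ratio then mainly follows Aldoa. With fewer libraries the ratios were compared as values, without a test. Deviations of same-numbered libraries correlated at 0.221, 0.35, -0.0807 and 0.123, and those of differently numbered libraries at -0.207 to 0.236. The labels do not say that the numbers mark pairs, and the main fit did not use them. The replicate block gave 9 enzymes higher and 5 lower, 14 and 6 companion genes, and 2029 and 1653 of all genes. Low expression limits Aldoc, Hk2, Ldhb, Idh1, Rpia and Pfkm.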
